A study of Homo sapiens with 9 samples.

Results

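Among the genes of the Rag GTPase, folliculin and TFEB axis, the transcript of RRAGD stood far lower with miR-16 than with the control mimic in MP41 cells, while the mean differences of the other 9 genes over 24 and 48 h were smaller than the threshold of the study. The 10 genes were RRAGA, RRAGC, RRAGD, FLCN, FNIP1, FNIP2, TFEB, TFE3, RPTOR, and LAMTOR1. They were taken by gene symbol, and all 10 were present among the 14839 genes with values. The group was selected on the measured decrease of RRAGD with miR-16 in these libraries, so the values of RRAGD between the mimics are a description and carry no support of their own. Each library came from MP41, a human uveal melanoma (UM) cell line that received either the mimic of miR-16 or a control mimic called miR-CTR (each 66 nM). Harvests were made at 6, 12, 24, and 48 h with each mimic. The miR-CTR series also has a 0 h library, the starting time point of the study, which was read here as harvested before transfection. Of these 9 libraries, miR-16 accounts for 4 and the miR-CTR series for 5, and every condition had a single (1) library. There was thus no replicate, no p-value was computed, and the difference between cultures is not known.

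mTORC1 is the kinase complex that drives growth when nutrients are present, and it works at the surface of the lysosome. It is brought there by a pair of Rag GTPases, in which RagA or RagB (RRAGA, RRAGB) is joined to RagC or RagD (RRAGC, RRAGD), held on the membrane by the Ragulator complex and bound by raptor (RPTOR). Folliculin (FLCN), with FNIP1 or FNIP2, is the GTPase-activating protein of RagC and RagD. In that state the Rag GTPases present TFEB and TFE3, transcription factors of lysosomal genes, to mTORC1, whose phosphorylation keeps them in the cytoplasm. TFEB, TFE3, and their melanocytic relative MITF can in turn induce RRAGD, FLCN, and FNIP2, which closes a loop between the lysosome and the nucleus.

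The sequences shown here are miR-16 and the matches to its seed in the 3′UTRs of the members, since the question of the study was which RNAs respond to miR-16. Mature miR-16 is printed with its seed (bases 2 to 8) in capitals. It is encoded on chromosome 13 (50049027 to 50049048, reverse strand) and on chromosome 3 (160404754 to 160404775, forward strand) of GRCh38.p14, per RefSeq.
hsa-miR-16-5p: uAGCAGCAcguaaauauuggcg

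In the longest 3′UTR of GENCODE version 29 on GRCh38, 5 of the 10 members had a match of at least 7 bases. These were an 8mer (TGCTGCTA) in FNIP1 and a 7mer-m8 (TGCTGCT) in FNIP2, FLCN, RRAGC, and RRAGA. Among all 11584 measured protein-coding genes with a 3′UTR, 29.2% had such a match. The matches are in capitals below, read 5′ to 3′ on the strand of the gene.
FNIP1 8mer: caaggaatgagcTGCTGCTActttaaag
FNIP2 7mer-m8: gaccaagaatgtTGCTGCTcttttata
FLCN 7mer-m8: ttttgtctttatTGCTGCTttcaacat
RRAGC 7mer-m8: ggacatgggagcTGCTGCTtgtgggaa
RRAGA 7mer-m8: ctttgaagtgtgTGCTGCTtactcctt

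The match of FNIP1 lies on chromosome 5 at 131642228 to 131642235, that of FNIP2 on chromosome 4 at 158906725 to 158906731, and that of FLCN on chromosome 17 at 17212874 to 17212880. The match of RRAGC lies on chromosome 1 at 38839465 to 38839471, and that of RRAGA on chromosome 9 at 19050709 to 19050715. RRAGD had no match of 7 or 8 bases in its 3420-base 3′UTR, and only a 6mer (GCTGCT) at bases 46 to 51 (chromosome 6, 89368005 to 89368010, reverse strand). A 7mer-m8 was present in the coding sequence of RRAGD at 89368060 to 89368066, 4 bases before the start of the 3′UTR with the stop codon included. Outside the 3′UTR, a match of 7 or 8 bases was found in 5 of the 10 members, and in 40% of the 11584 genes. RPTOR and LAMTOR1 had only 6mers in the 3′UTR, and TFEB and TFE3 had no match. Both matches of RRAGD are shown.
RRAGD 6mer, 3′UTR: cttatccatgagGCTGCTgcgccatg
RRAGD 7mer-m8, coding sequence: ggacccctagagTGCTGCTgtaggtga

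The deposited values are on the log2 scale, and one unit is a doubling of the normalized reads. The logFC is the miR-16 value minus the miR-CTR value of the same time, and the late logFC is its mean over 24 and 48 h. A gene was called past 0.5 in size. The counting standard error (SE) of a logFC comes from the reads alone and leaves out the variation between cultures. The libraries held between 20300000 and 27400000 reads. The 7 melanocytic markers MLANA, PMEL, TYR, DCT, TYRP1, SOX10, and S100B stood between 8.66 and 17.88 at 0 h, whereas 8 of 10 markers of other cell types were not in the file. Of the remaining pair, COL1A1 stood at 8.31 and PDGFRB at 4.75 at 0 h, and PDGFRB had a late logFC of 1.795 (counting SE 0.322) on 10 to 45 reads. The summed level of this pair lay between 8.47 and 8.69 with miR-16 and between 8.1 and 8.89 with miR-CTR, and its part in the results was not tested.

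The expression of RRAGD, one of the alternatives for the RagC/D place in the Rag pair, separated the mimics from the first time on. RRAGD (ENSG00000025039.14) spans bases 89364636 to 89412270 of chromosome 6, reverse strand. Its value was 10.57 at 0 h, and then, in the order 6, 12, 24, and 48 h, 10.48, 10.68, 10.97, and 11.44 in the miR-CTR libraries. The miR-16 libraries had 9.97, 9.96, 9.74, and 9.93 in the same order. Every miR-16 library lay below every miR-CTR library, the 0 h library included. In the same order of times the logFC was −0.51, −0.72, −1.23, and −1.51, and the last of these is a level 64.9% lower. The late logFC was −1.37 (counting SE 0.04), the rank 19 from the lowest among all genes. These were bulk libraries, in which fewer cells with the transcript and less of it per cell cannot be told apart.

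Relative to 0 h, the late difference of RRAGD had a part in each series. Between 0 h and the late window, the change of RRAGD was −0.735 in the miR-16 series and 0.635 in the miR-CTR series. The miR-16 libraries stayed within 0.23 of each other from 6 to 48 h. From 6 to 48 h the growth of the logFC was mostly in the miR-CTR libraries, which covered a range of 0.96. Between 12 and 24 h, however, the miR-16 value fell from 9.96 to 9.74 while the miR-CTR value rose from 10.68 to 10.97. RRAGD was the member past 0.5 downward in the late window, against 5.73% of all genes, and no member passed it upward, against 7.76%. RRAGD was also the member below −0.5 in the early window (the mean of 6 and 12 h), with a logFC of −0.615, where 1.45% of all genes were below it, and at 6, 12, and 24 h, where the shares of all genes were 3.34%, 2.53%, and 5.26%. At 48 h both RRAGD and FNIP2 were below it, against 8.96%. No member was above 0.5 in the early window (2.04% of all genes) or at 6, 12, 24, or 48 h (3.38%, 3.31%, 7.24%, and 10.4%). The member nearest to the threshold on its other side was FNIP2 at −0.485.

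**Figure D1:**
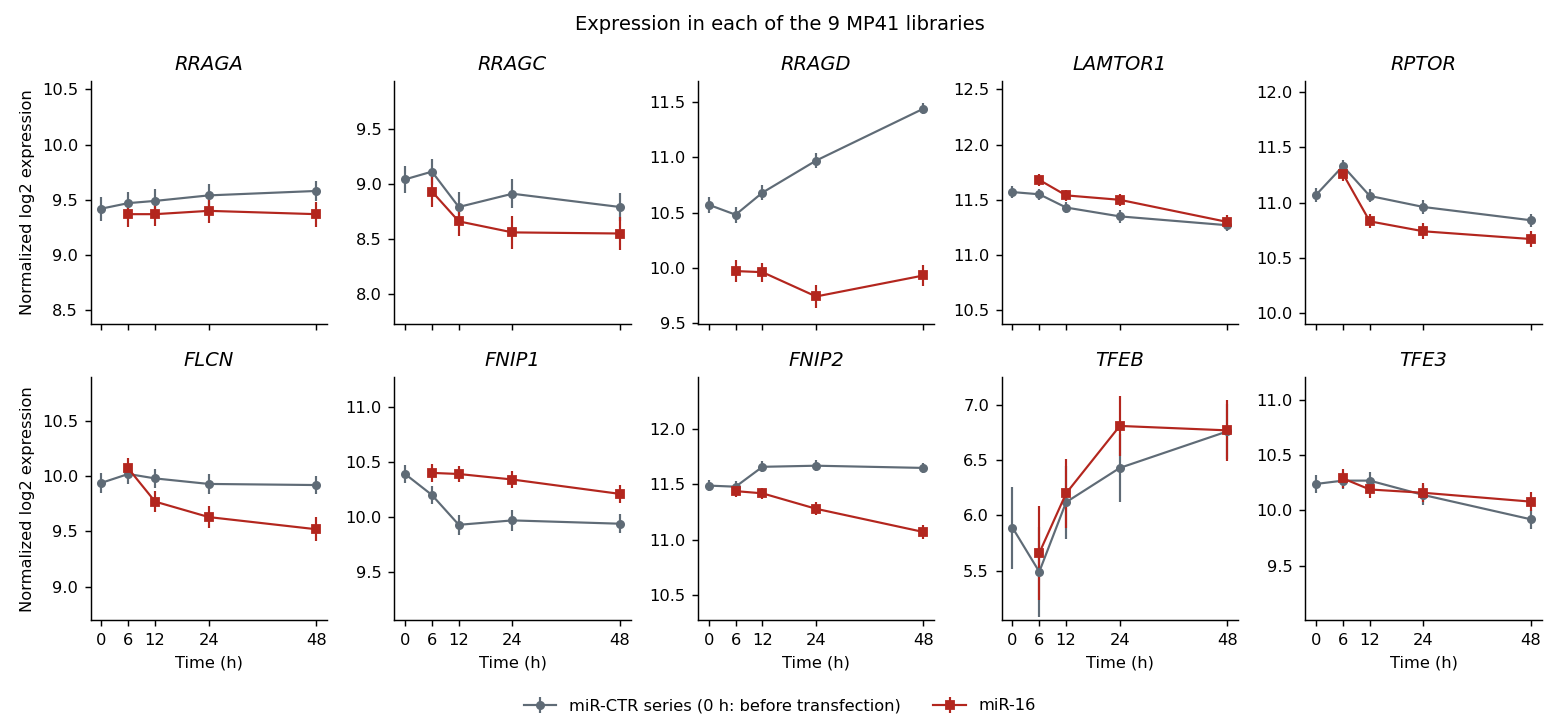
Normalized log2 expression (vertical axis, the same span in every panel) of the 10 genes against time in hours, with 1 point per library and bars for the 95% counting interval. The miR-16 libraries of RRAGD lie between 9.74 and 9.97, below all 5 miR-CTR libraries, and TFEB climbs with both mimics.

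The other Rag genes had values much closer to those of the control. RRAGC, the alternative to RRAGD in the pair, was 9.04 at 0 h, then 9.11, 8.79, 8.91, and 8.79 with miR-CTR and 8.93, 8.66, 8.56, and 8.55 in the miR-16 libraries. Its value was lower with miR-16 at each of the 4 times, but the values of the mimics overlapped across times, and the late logFC was −0.295 (counting SE 0.071). Up to 22.9% of the exon bases of RRAGC are shared with AL139260.2 on the same strand, so that part of its reads cannot be assigned to one gene. RRAGC spans 38838198 to 38859823 of chromosome 1 and RRAGA 19049395 to 19050983 of chromosome 9. RRAGA was 9.42 at 0 h, 9.47, 9.49, 9.54, and 9.58 with miR-CTR, and 9.37, 9.37, 9.4, and 9.37 in the miR-16 libraries. All 4 miR-16 values were below the 4 miR-CTR values, yet the late logFC was only −0.175 (counting SE 0.054). The miR-CTR values of RRAGA were 0.14 above 0 h in the late window, while those of miR-16 stood at −0.035. RRAGB, the fourth Rag gene and not one of the 10, was lower still in level, at 7 in the 0 h library, with a late logFC of −0.34 (counting SE 0.115) on 118 to 187 reads.

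The balance between RRAGC and RRAGD transcripts was compared per length, as normalized reads per kilobase of annotated exons. The length is that of all annotated exons of a gene together, 5167 bases for RRAGC and 5072 for RRAGD. It is not the length of a single transcript, and the shares and ratios between genes depend on it. Of the RRAGC bases, 22.9% are shared with AL139260.2. At 0 h, RRAGD made up 74.7% of the sum of both. In miR-CTR libraries, from the earliest to the latest time, the share was 72.5%, 79.1%, 81.0%, and 86.5%. In miR-16 libraries it was 67.7%, 71.5%, 69.8%, and 72.6%. By this measure RRAGD remained the more abundant of the pair in every library. The ratio of RRAGD to RRAGC at 48 h was 6.41 with miR-CTR and 2.66 with miR-16. The sum of both was 401.2 reads per kilobase at 0 h, 633.1 with miR-CTR at 48 h, and 264.5 with miR-16 at 48 h. For the partners RRAGA and RRAGB the sum per kilobase was 477.1 at 0 h, 539.7 with miR-CTR at 48 h, and 468.6 with miR-16 at 48 h. By the same measure the RagC/D transcripts were 1.17 times the RagA/B transcripts with miR-CTR at 48 h and 0.56 times with miR-16. At 0, 6, 12, and 24 h of the miR-CTR series this ratio was 0.84, 0.77, 0.8, and 0.9. With miR-16 at 6, 12, and 24 h it was 0.63, 0.58, and 0.51.

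**Figure D2:**
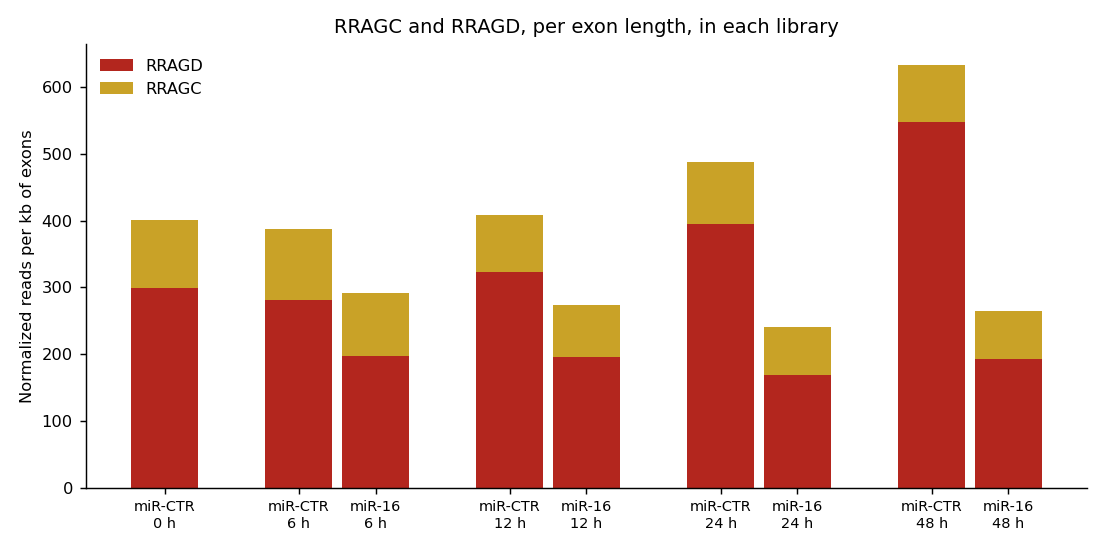
Stacked bars of the normalized reads per kilobase of exons of RRAGD and RRAGC in each of the 9 libraries (linear axis from 0). The miR-CTR bars grow to 633.1 at 48 h, whereas the miR-16 bars stay between 241.3 and 291.7.

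Among the proteins that anchor the Rag GTPases and mTORC1, LAMTOR1, the Ragulator subunit that ties the complex to the lysosomal membrane, had almost equal values with both mimics. It was 11.57 at 0 h, between 11.27 and 11.55 with miR-CTR, and between 11.3 and 11.68 with miR-16, and the late logFC was 0.09 (counting SE 0.028). RPTOR, the mTORC1 subunit that binds the Rag pair, was lower with miR-16 at each time, with logFC values from −0.23 to −0.07 and a late value of −0.195 (counting SE 0.034). The values ranged from 10.84 to 11.33 with miR-CTR and from 10.67 to 11.26 with miR-16, so the spread over time was wider than the difference between the mimics. RPTOR spans 80544819 to 80966371 of chromosome 17 and LAMTOR1 72085895 to 72103387 of chromosome 11.

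Folliculin and its partners stood on different sides of the control. FNIP2 (ENSG00000052795.12, chromosome 4, 158769138 to 158908049) was 11.49 at 0 h, then 11.48, 11.66, 11.67, and 11.65 in the miR-CTR libraries. The miR-16 libraries had 11.44, 11.42, 11.28, and 11.07. Its miR-16 values were lower at each later time while the miR-CTR values stayed level from 12 h, and all 4 lay below those of miR-CTR. The logFC was −0.04, −0.24, −0.39, and −0.58, and FNIP2 was past the threshold at 48 h, when 8.96% of all genes were past it downward. The late logFC was −0.485 (counting SE 0.028).

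FLCN was 9.94 at 0 h and between 9.92 and 10.02 with miR-CTR at the later times, a range of 0.1 over 5 libraries. The miR-16 values were 10.07, 9.77, 9.63, and 9.52 in order of time. The difference between the mimics in FLCN was thus in the miR-16 libraries, with a late logFC of −0.35 (counting SE 0.05) and −0.4 at 48 h. FLCN spans 17212212 to 17237188 of chromosome 17, and of its annotated exon bases 11.9% are shared with AC055811.2 on the same strand.

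FNIP1 (chromosome 5, 131641714 to 131797063), the alternative partner of folliculin and the member with the 8mer, had higher values with miR-16. It was 10.39 at 0 h, then 10.2, 9.93, 9.97, and 9.94 with miR-CTR, and 10.4, 10.39, 10.34, and 10.21 in the miR-16 libraries. All 4 miR-16 values lay above the 4 miR-CTR values. The logFC was 0.2, 0.46, 0.37, and 0.27, and the late logFC was 0.32 (counting SE 0.043). Relative to 0 h, the late values stood at −0.115 with miR-16 and at −0.435 with miR-CTR, so that this difference lay mostly in the miR-CTR libraries. With 0 h as the reference, FNIP1 was below and not above it with miR-16.

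**Figure D3:**
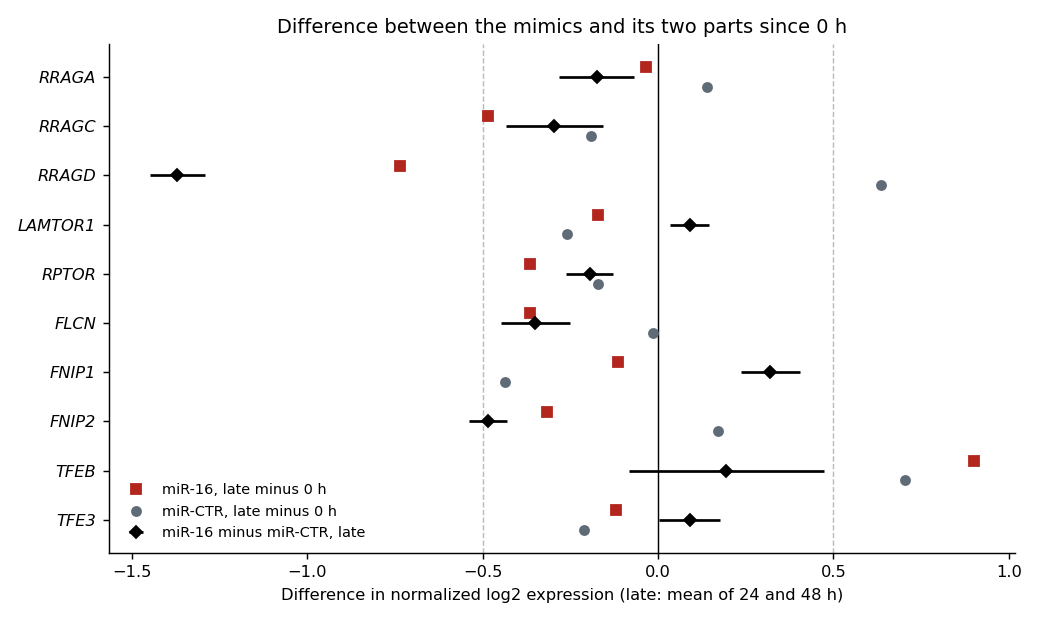
Late differences in normalized log2 expression for the 10 genes: miR-16 minus miR-CTR (diamonds, with 95% counting intervals), miR-16 minus 0 h (squares), and miR-CTR minus 0 h (circles). Dashed lines mark the threshold of 0.5; for RRAGD the squares and circles stand on opposite sides at −0.735 and 0.635, and for TFEB both stand past 0.5.

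TFEB, the transcription factor that gives the axis its name, was weakly expressed and climbed with time whichever mimic was used. It was 5.89 at 0 h, 5.49, 6.12, 6.43, and 6.76 with miR-CTR, and 5.66, 6.2, 6.81, and 6.77 in the miR-16 libraries. The late values were 0.705 above 0 h with miR-CTR and 0.9 above it with miR-16. With 43 to 126 reads in a library, its late logFC of 0.195 had a 95% counting interval from −0.08 to 0.47, and no difference between the mimics was detectable at this depth. TFEB spans 41683978 to 41736259 of chromosome 6 and TFE3 49028726 to 49043486 of chromosome X. TFE3 stood at 10.24 at 0 h, between 9.92 and 10.27 with miR-CTR, and between 10.08 and 10.29 with miR-16. Its logFC changed sign between times, and the late value was 0.09 (counting SE 0.044). MITF, the melanocytic factor of the same family, was 13.28 at 0 h with a late logFC of −0.08 (counting SE 0.014). The factor TFEC was not in the file.

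Past 0.5 between 0 h and the late window, RRAGD and TFEB were above 0 h with miR-CTR, when 11% of all genes were, and no member was below 0 h by as much, against 9.79%. With miR-16, TFEB was above 0 h, against 14.1% of all genes, and RRAGD was below it, against 11.7%. Of the 10 members, 3 (RRAGA, RRAGD, and FNIP2) had all 4 miR-16 values below the 4 values of transfected miR-CTR cells, against 3.75% of all genes. FNIP1 had all 4 above them, against 3.81%. The nearest miR-16 and miR-CTR values were 9.4 (24 h) and 9.47 (6 h) for RRAGA, with counting SE 0.057 and 0.053. For FNIP2 they were 11.44 and 11.48, both at 6 h (0.029 and 0.026). For FNIP1 they were 10.21 (48 h) and 10.2 (6 h), with 0.043 and 0.041. The separations of RRAGA, FNIP2, and FNIP1 were thus about as small as the counting error, unlike that of RRAGD (9.97 and 10.48). The times within a mimic are not replicates, and RRAGD was itself the ground for choosing the group. For 5 members the logFC was below 0 at every one of the 4 times (16.7% of all genes) and positive at all 4 for 3 members, FNIP1, TFEB, and LAMTOR1 (17.7%). The late logFC was below 0 for 6 of the 10 members and for 49.1% of all genes, and the median of the members was −0.185 against 0.005.

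Per length of all annotated exons together, the levels of the members spanned a wide range at 0 h. On the log2 scale of normalized reads per kilobase of exons, LAMTOR1 was highest at 10.1, followed by RRAGA (8.75), RRAGD (8.23), TFE3 (8.15), FNIP2 (8.05), RPTOR (7.71), FNIP1 (7.41), RRAGC (6.68), FLCN (6.66), and TFEB (3.5). Over the 5 miR-CTR libraries the ranges of RRAGA and RRAGD, of RRAGD and TFE3, and of RRAGD and FNIP2 overlapped. Those of TFE3 and FNIP2, of TFE3 and RPTOR, and of RRAGC and FLCN overlapped too. These ranges pool the times, so they alone do not settle the order within these pairs. Within every single miR-CTR library, however, RRAGD stood above FNIP2 and TFE3 above RPTOR. With miR-CTR at 48 h, RRAGD was 9.1 and FNIP2 8.21, and TFE3 was 7.83 and RPTOR 7.48. In the other pairs the order changed between libraries. MITF, at 10.44, stood above all 10, and TFEB was below TFE3 in every miR-CTR library.

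The late logFC of the members was set beside the medians of all genes with the same seed match. Grouped by longest match, the 574 8mer genes of the file had a median late logFC of −0.165, the 2384 7mer-m8 genes −0.07, the 2038 6mer genes 0.005, and the 6163 genes lacking a match 0.025. FNIP1, with the longest match, had the highest late logFC of the 10 at 0.32. RRAGD, whose low value was the ground for choosing the group, has a 6mer in its 3′UTR. Of genes whose longest match was a 6mer, 90% lay between −0.47 and 0.551. The 4 members with a 7mer-m8, FNIP2, FLCN, RRAGC, and RRAGA, all had a late logFC below 0, from −0.485 to −0.175, and TFE3 and TFEB, with no match, had 0.09 and 0.195. These matches are exact letters in 1 annotated 3′UTR per gene, and no binding was measured in these libraries.

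**Figure D4:**
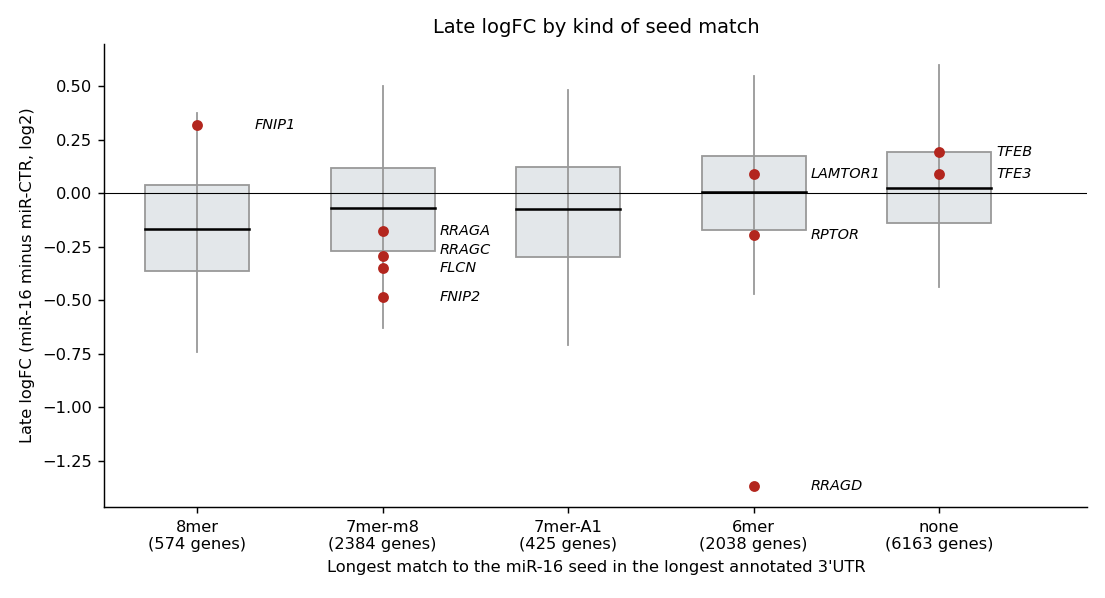
Late logFC by the longest match to the miR-16 seed in the 3′UTR, with boxes for the central 50% of all genes, a line for the median, whiskers from percentile 5 to 95, and points for the 10 members. FNIP1 (0.32) lies above the box of the 8mer genes and RRAGD (−1.37) far below the whisker of the 6mer genes.

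TFEB, TFE3, and MITF bind the E-box CACGTG, so the RefSeq promoter windows (250 bases before to 50 after the start, GRCh38.p14) were searched for it; the motif reads the same on both strands. Windows were present for 8 of the 10 members and not for RRAGA and RRAGD. Of these 8 genes, 3 (RRAGC, FNIP1, and LAMTOR1) held it in at least 1 window, as did 8.77% of all 27305 genes with a window. Those 27305 were not limited to genes measured here, whereas the 8 members were all measured, so the sets are unlike. The longer form TCACGTGA was in no window of the 8 and in those of 1.18% of all genes.

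To place the members in their pathway, 93 further genes were read from 11 lists of nutrient-sensing and lysosomal genes (of 97 listed). Past 0.5 in the late window were 4 genes downward and 1 upward, when 5.73% and 7.76% of all genes were. SESN3, a sestrin that restrains mTORC1, had the lowest late logFC at −0.75 (counting SE 0.044). Its value was 9.62 at 0 h, 9.58 to 10.57 with miR-CTR, and 9.05 to 9.82 with miR-16. In the late window it stood 0.875 above 0 h with miR-CTR and 0.125 above it with miR-16, so that, unlike RRAGD, it was not below 0 h with miR-16. SESN1 and SESN2 stood at −0.045 and −0.255. PPARGC1A, a coactivator of mitochondrial genes that TFEB can induce, climbed from 8.99 at 0 h to 11.06 with miR-CTR at 48 h and to 10.24 with miR-16, with a late logFC of −0.695 (counting SE 0.04). YWHAH, a 14-3-3 protein of the family that holds TFEB in the cytoplasm, had a late logFC of −0.69 (counting SE 0.034). The other 14-3-3 genes of the lists were not past the threshold: YWHAB (−0.215), YWHAE (−0.06), YWHAG (−0.17), YWHAQ (−0.015), and YWHAZ (0.11). YWHAZ had 51726 to 81554 reads in a library, against 1182 to 3509 for YWHAH. GLA, the lysosomal α-galactosidase, had a late logFC of −0.51 (counting SE 0.034), which was not past the threshold under the 3 other scalings.

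The upward gene was LAMTOR3, a Ragulator subunit. It was 10.16 at 0 h, 9.43, 9.05, 8.87, and 8.79 with miR-CTR, and 9.94, 9.86, 9.46, and 9.59 in the miR-16 libraries. All 8 transfected libraries stood below 0 h, those of miR-CTR by more, and the logFC was between 0.51 and 0.81. LAMTOR3 has 2 7mer-m8 matches to the miR-16 seed in its 3′UTR, and the downward genes SESN3 and YWHAH have 1 each. The longest match of PPARGC1A is a 6mer, and GLA has none in an annotated 3′UTR of 6 bases. A match of at least 7 bases was present in 30 of the 90 pathway genes with a 3′UTR, against 29.2% of all genes. The other Ragulator genes LAMTOR2, LAMTOR4, and LAMTOR5 had late logFC values of −0.16, −0.235, and −0.01, and SLC38A9, the lysosomal arginine sensor, −0.275.

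No gene of the mTORC, GATOR, KICSTOR, Rheb, TSC, AMPK, or mTORC1 substrate lists passed 0.5 in the late window. Each of these lists holds only 5 to 8 genes, and 5.73% of all genes passed it downward and 7.76% upward. At single times some did pass: RPS6KB1 (−0.57) and PRKAG2 (−0.52) at 24 h, when 5.26% of all genes were past it downward. Upward were RHEBL1 at 12 h (0.54, against 3.31% of all genes) and PRR5L at 48 h (0.59, against 10.4%). The mTORC1 and mTORC2 subunits ranged from −0.34 (RICTOR) to 0.365 (PRR5L), with MTOR at −0.255. The GATOR1 and KICSTOR genes, which turn off the RagA/B side, ranged from −0.38 (DEPDC5) to 0.3 (NPRL2), and the opposing GATOR2 genes from −0.105 (WDR59) to 0.455 (SEH1L), with MIOS at −0.1. RHEB, the GTPase that activates mTORC1, had −0.32. The AMPK subunits, of a kinase bound by folliculin and the FNIP proteins, lay between −0.47 (PRKAG2) and 0.225 (PRKAB2), with PRKAA1 at −0.2. Calcineurin, the phosphatase that acts on TFEB, had 0.345 for catalytic subunit PPP3CA, −0.41 for catalytic subunit PPP3CB, and 0.15 for regulatory subunit PPP3R1. The mTORC1 substrates lay between −0.46 for RPS6KB1, the S6 kinase, and 0.36 for EIF4EBP2. The 32 lysosomal and autophagy genes of the CLEAR network, the targets of TFEB, had a median late logFC of −0.095, with 23 of them below 0. Over all genes the median was 0.005, and 49.1% were below 0. Relative to 0 h, the late median of the 32 was above 0 with both mimics, at 0.258 with miR-CTR and 0.085 with miR-16. Of the 32, 2 were past 0.5 downward and 0 upward, against 5.73% and 7.76% of all genes. Besides PPARGC1A and GLA, the lowest were SQSTM1 at −0.495 and MCOLN1 at −0.465, while GPNMB, the most expressed, had 0.025.

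**Figure D5:**
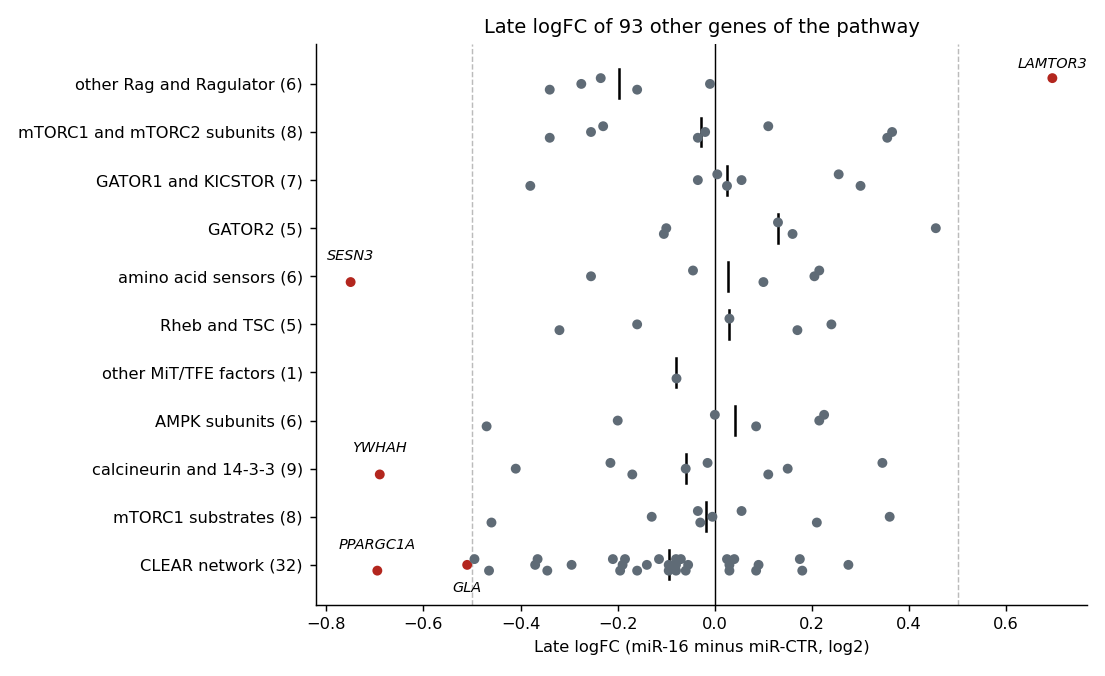
Late logFC (horizontal axis, log2) of 93 further pathway genes by list, with the number of genes in parentheses, 1 point per gene, and a vertical bar at the median of the list. The 5 genes past the dashed threshold of 0.5 are named; SESN3 is the lowest at −0.75 and LAMTOR3 the highest at 0.695.

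The 5 genes with values most like those of RRAGD over the 9 libraries, by Pearson's r among 11127 genes above the lowest 25% of mean expression, were KDSR (0.981), PAM (0.978), CNOT6L (0.976), CDK17 (0.974), and AP2A1 (0.97). The libraries share their time course and their mimic, so these coefficients are a description over 9 points. Each of the 5 had all its miR-16 values below all its miR-CTR values and a smaller difference than RRAGD, with a late logFC from −0.78 for PAM to −0.47 for KDSR. Because the 5 were picked for likeness to RRAGD, whose values separate the mimics, this separation largely follows from the choice. Among the members themselves, r with RRAGD was 0.943 for RRAGA, 0.798 for FNIP2, −0.78 for FNIP1, and 0.062 for TFEB.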

How the data were processed

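RNA sequencing of polyA RNA was performed by the authors on 9 MP41 libraries, 1 per condition. The submitters' processing notes name FastQC, STAR 2.4.0a, and featureCounts of Subread 1.5.0-p3, and the builds hg38 and GRCh38; the annotation, the strand setting, and the filter on weakly expressed genes are not given in the sources used here. The deposited values are on a log2 scale with 2 decimals. In each library, all low values (linear value under 8) were whole multiples, within 0.1, of 1 step, the form of log2(reads / size factor + 1), and reads were recovered by dividing by the step. The columns carry time numbers (T0, T1, T2, T4, and T5), which were read as the times of the labels in ascending order. No further normalization was applied. Members and lists were chosen with earlier results of these data known. The genes named are the 10 members, the pathway genes past 0.5 with the first of each list, MITF, and the 5 genes most like RRAGD; others were named after their values were seen. Of 14839 symbols, 87.6% matched 1 gene of GENCODE version 29. Calling and the recovery of reads were tested on simulated data. Python 3.11.15, pandas 2.3.3, numpy 2.4.6, and matplotlib 3.10.9 were used. Alternatives were other scalings, a pseudocount of 5, 0 h as the reference, single times, the early window (6 and 12 h), other thresholds, a filter on low expression, and other definitions of a match.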

Additional observations from a re-analysis of the deposited data

How the results depend on the processing

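With 1 library per condition, none could be left out. The labels carry no replicate numbers, and a fit that takes the 4 times as pairs was not run. RRAGD was past −0.5 under all 11 alternatives for calls. Its late logFC stayed within counting error under the 3 other scalings and the other pseudocount, and was −0.735 with 0 h as the reference, −1.23 at 24 h alone, −1.51 at 48 h alone, and −0.615 in the early window. The number of members called down was 2 at 48 h alone (RRAGD and FNIP2), and with 0 h as the reference 1 was called up (TFEB). Of the pathway genes, 7 were called down at 24 h alone (5.26% of all genes) and 1 in the early window (1.45%), against 4 (5.73%). With 0 h as the reference, 4 were again called down (11.7% of all genes), but only YWHAH was in both sets. The others were SEH1L, SQSTM1, and LAMTOR3, which was called up in the main setting. PPARGC1A, called down in the main setting, was then called up. The number called up was 8 with 0 h as the reference (14.1% of all genes) and 3 at 48 h alone (10.4%), against 1 (7.76%). With 6mers counted, 8 members had a seed match, against 46.8% of all genes. The other 9 members kept the sign of their late logFC in 68 of 72 values; with 0 h as the reference FNIP1, LAMTOR1, and TFE3 were negative, as was TFE3 in the early window. Depth limits TFEB most.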
